A study of Mus musculus with 43 samples.

Results

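The S100 genes encode small proteins that bind calcium through a pair of EF-hand loops and then dock onto partner proteins. They were followed here in PD798, a tumor cell line of pancreatic origin taken from an engineered mouse model, in which Pdx1-cre acts in the pancreatic lineage on alleles that include a single floxed p53 allele (p53 L/+) and a Rosa reporter of yellow fluorescent protein. The 10 S100 genes studied, S100a1, S100a4, S100a6, S100a8, S100a9, S100a10, S100a11, S100a13, S100a14 and S100a16, were picked by symbol from the 14773 genes of 2 tables of TPM (a level per length of transcript, scaled to a fixed total per library). All 10 were among the 13817 genes of the input table and 8 were among the 13845 genes of the processing table, where S100a8 and S100a9 were not analysed. The study asked whether sorting rare tumor cells out of blood alters their expression profile, and whether profiles can be read from few cells.

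All 43 libraries came from the same line, cultured in medium with serum, so that replicates are libraries of a single line and not of separate animals. The processing experiment held 3 libraries of bulk RNA from each of 4 conditions. Pre-FACS cells were set aside before any sorting, Mock cells waited on the bench in staining buffer at room temperature, Pre-enriched cells met magnetic particles and red cell lysis buffer and went through magnetic and acoustic pre-enrichment and a BD Influx cell sorter, and FACS-only cells came from that prepared sample but went to the sorter directly. The input series held 11 single cells, 12 pools of 10 cells and 6 pools of 100 cells that were spiked into normal mouse blood, pre-enriched and sorted, and 2 libraries of bulk RNA that the study describes as RNA of the line itself, although its labels give the pre-enriched sort for them too. GEO's labels mention blood for every sample, the processing libraries included. Nothing says that replicates came from separate cultures, so the p-values below measure the spread between these libraries only, which may be technical.

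In epithelia several S100 proteins sit under the plasma membrane with annexins, where they link membranes to the cytoskeleton. S100a10, the member that holds its active shape without calcium, pairs with Anxa2, and S100a11 pairs with Anxa1. S100a6 binds Cacybp and Sugt1, and S100a4 binds nonmuscle myosin and is known for its part in cell motility and metastasis. S100a13 takes part in the release of Fgf1 and Il1a, S100a14 and S100a16 are found in epithelial cells, and S100a1 is best known from muscle. S100a8 and S100a9 form calprotectin, the abundant protein of neutrophils, and are also made by stressed or inflamed epithelium.

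All 10 genes lie on mouse chromosome 3 (mm10, GENCODE annotation), 8 of them within 185 kb. S100a1 (chr3:90511034-90514392, minus strand) and S100a13 (chr3:90514435-90524581, plus strand) stand head to head, followed by S100a14 (chr3:90526856-90528837), S100a16 (chr3:90537254-90543151), S100a4 (chr3:90603771-90606045), S100a6 (chr3:90612882-90624181) and S100a8 (chr3:90668978-90670035), all on the plus strand, and by S100a9 (chr3:90692632-90695721) on the minus strand. A gap of 2.82 Mb separates them from S100a11 (chr3:93520488-93526287) and S100a10 (chr3:93555080-93564643). All are protein-coding genes with 511 to 1727 exonic bases. S100a4 shares exonic bases with the annotated gene Gm42674, and since the library kit does not mark strand, its reads cannot be told apart from reads of that gene where they overlap.

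The sequences shown are those to which the largest differences below attach: the start regions of S100a8 and S100a9, the only members absent from many libraries, and the whole stretch between S100a1 and S100a13. They are taken from RefSeq (GRCm38.p6, the mm10 assembly), run 5′ to 3′ on the strand named, and end at the base before the annotated gene start, reaching back as far as the reference window did. The promoter table, which holds 250 bases before each start and the first bases after it, gave a window for 8 of the 10 genes, and S100a10 and S100a14 had none. Capitals mark matches, on either strand, to the letters of common promoter elements. These were the TATA box (TATAAA, held by 12.4% of the 32851 full windows of the promoter table), the CCAAT box (searched by that name's letters and held by 33.8%), the GC box (GGGCGG, held by 32.7%), a simplified AP-1 motif (TGANTCA, held by 6.75%) and a simplified C/EBP motif (TTNCNNAA, held by 36.8%). A match is a description of letters only.
S100a8 upstream (chr3:90668821-90668977, plus strand): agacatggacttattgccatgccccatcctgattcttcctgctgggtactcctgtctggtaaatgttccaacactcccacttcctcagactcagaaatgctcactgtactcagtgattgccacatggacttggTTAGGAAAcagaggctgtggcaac
S100a9 upstream (chr3:90695722-90695971, minus strand): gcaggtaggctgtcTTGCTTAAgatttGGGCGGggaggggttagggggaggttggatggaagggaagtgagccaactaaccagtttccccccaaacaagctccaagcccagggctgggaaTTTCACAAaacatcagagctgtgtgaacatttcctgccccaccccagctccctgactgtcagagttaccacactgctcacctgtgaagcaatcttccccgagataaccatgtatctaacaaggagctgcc
between S100a1 and S100a13 (chr3:90514393-90514434, plus strand): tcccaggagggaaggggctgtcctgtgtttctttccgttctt
The S100a8 stretch held 1 C/EBP motif, the S100a9 stretch held 2 C/EBP motifs and 1 GC box, and the 42 bases between S100a1 and S100a13 held none of the 5 sets of letters. The S100a8 window also held 1 TATA box, which is not in the stretch shown: the RefSeq start lies inside the gene as GENCODE draws it, and the stretch stops at the GENCODE start.

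Some libraries stood apart from their labels before any S100 gene was considered. Across all genes of the input table, the libraries labelled single cells 6 and 9, 10-cell pools 5 and 12 and 100-cell pools 1 to 3 were alike, with Pearson's r of log2(TPM + 1) from 0.973 to 0.996 in their 21 pairs, against at most 0.962 with any of the other 24 libraries. The library labelled single cell 6 had an r of 0.996 with 10-cell pool 5, whereas the other 9 single cells had an r of 0.56 to 0.755 with each other. These 7 libraries are named where a result rests on them, and many results are given with and without them. The 8 epithelial markers fixed for the line were all present in both tables and summed to 24800 to 28300 TPM in the processing libraries and 28300 to 28800 TPM in the bulk RNA of the input series, and to 3460 to 30200 TPM in single cells, 17700 to 32400 TPM in 10-cell pools and 7770 to 31900 TPM in 100-cell pools. Genes at 1 TPM or more numbered 11733 to 11867 in the processing libraries, 3919 to 11438 in single cells and 9149 to 11498 in 10-cell pools, and the input table held 54.2% to 99.99% of a library's fixed total, the lowest shares in single cells. TPM keeps no read depth, so counting errors could not be given.

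The processing conditions left the S100 genes close to their starting levels. None of the 8 genes differed among the 4 conditions by limma's F test (adjusted p from 0.613 to 0.993), where 0.107% of the 12159 genes tested did. S100a16 alone of the 8 had an unadjusted p under 0.05, as had 7.56% of all genes. None was called in any pair of conditions either. Against Pre-FACS, percent called over all genes was 0.00822 for Mock, 0.123 for FACS-only and 0.0493 for Pre-enriched, and the other 3 pairs had no called gene among 684, 945 and 821 genes with an unadjusted p under 0.05. With so few genes called in all, 0 of 8 is near the background. The log2 differences of the 8 genes from Pre-FACS lay between −0.19 and 0.04 in Mock, −0.18 and 0.12 in FACS-only and −0.24 and 0.08 in Pre-enriched cells.

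The family spanned a wide range of levels in these bulk libraries. S100a6 was highest, at 4199 to 6272 TPM over the 12 libraries, followed by S100a11 at 2055 to 2718 TPM, S100a10 at 724 to 949 TPM, S100a1 at 267 to 359 TPM and S100a16 at 199 to 238 TPM. None of these ranges touched the next. S100a4, at 145 to 212 TPM, overlapped with S100a16 above it and with S100a13 below it, which ran from 134 to 185 TPM. S100a14 was lowest by far, at 12.2 to 18.7 TPM. The 8 genes together took 0.78% to 1.09% of all TPM in a library.

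**Figure D1:**
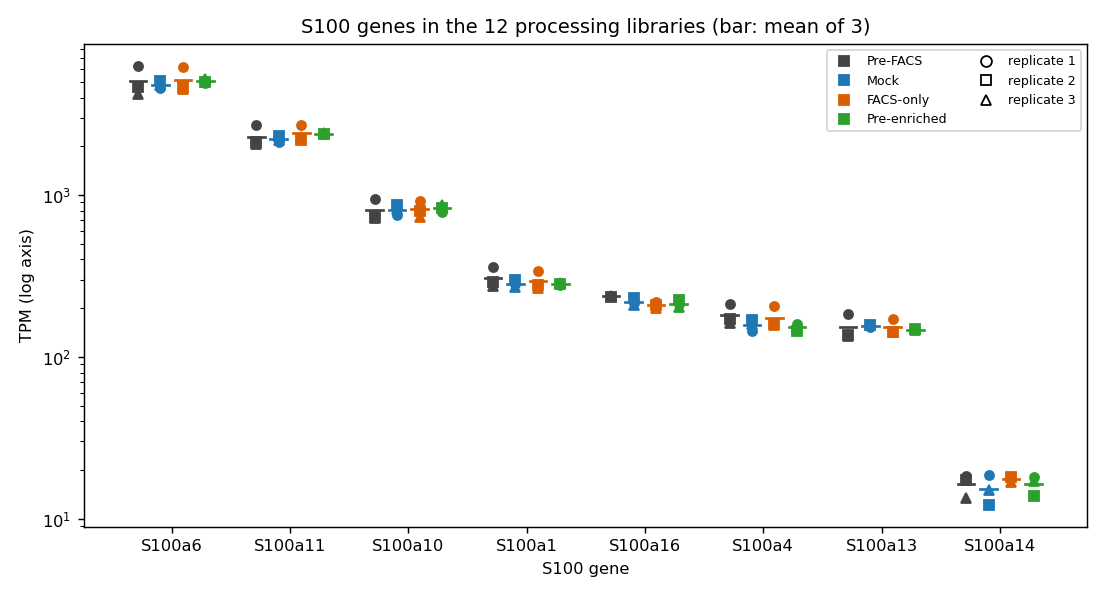
TPM (log axis) of 8 S100 genes in the 12 processing libraries, with colors for the 4 conditions, symbols for the replicate number and bars for the mean of 3. The genes keep their order in every condition except where S100a16, S100a4 and S100a13 come near each other, and the first libraries of Pre-FACS and FACS-only sit above the rest for 6 genes.

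S100a16 came nearest to a difference. Its level was 237.5, 233.1 and 237.7 TPM in Pre-FACS, 216.3, 230.3 and 208.5 TPM in Mock, 219.7, 208.4 and 199.0 TPM in FACS-only and 211.9, 223.1 and 202.2 TPM in Pre-enriched cells. All 3 Pre-FACS libraries thus lay above the other 9. The log2 difference from Pre-FACS was −0.18 (SE 0.0569) in FACS-only and −0.15 (SE 0.0569) in Pre-enriched cells, with limma adjusted p-values of 0.479 and 0.432, so neither passed the test. Groups failed to overlap for 9.33% of all genes between Mock and Pre-FACS, 11.6% between FACS-only and Pre-FACS and 14.2% between Pre-enriched and Pre-FACS, against 1, 1 and 2 of the 8 S100 genes. All 8 overlapped between FACS-only and Mock and between Pre-enriched and FACS-only cells, where 10.5% and 12.3% of all genes did not.

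S100a4, the motility-associated member, was the other gene without overlap. It measured 211.9, 171.5 and 161.6 TPM in Pre-FACS and 159.4, 145.1 and 152.5 TPM in Pre-enriched cells, a log2 difference of −0.24 (SE 0.105, limma adjusted p = 0.498). The highest Pre-enriched value was just under the lowest Pre-FACS value, and without Pre-FACS replicate 1 the difference was −0.13. S100a11 was the steadiest gene within a condition, at 2391, 2395 and 2400 TPM in Pre-enriched cells. Its 3 Mock values of 2121, 2300 and 2194 TPM all lay below these, 1 of 2 S100 genes that did not overlap between Pre-enriched and Mock, where 15.4% of all genes did not. The other was S100a13, with 148.8, 147.8 and 145.5 TPM in Pre-enriched and 152.0, 157.0 and 156.3 TPM in Mock cells, in the opposite direction.

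Most of the spread within conditions came from the same libraries. S100a6 measured 6272, 4654 and 4199 TPM in Pre-FACS and 6204, 4646 and 4501 TPM in FACS-only cells, against 4557, 5035 and 4814 TPM in Mock and 4912, 5019 and 5181 TPM in Pre-enriched cells. In S100a1, S100a4, S100a6, S100a10, S100a11 and S100a13 the first libraries of Pre-FACS and of FACS-only were both above the other 10, by 1.18 to 1.32 times on average. This held for 6 of 8 S100 genes, for 4.73% of all genes tested and for 12.1% of those with a mean of at least 100 TPM. Beside it, 65 genes outside the family with under 1000 exonic bases and a mean of at least 100 TPM had a median log2 deviation of 0.299 and 0.26 in these libraries, where 2210 longer genes had −0.018 and −0.0266 and the 7 S100 genes of at least 100 TPM had 0.293 and 0.216. The median was 0.298 and 0.224 for the 4 of these under 1000 exonic bases (S100a1, S100a4, S100a11 and S100a13) and 0.226 and 0.182 for the 3 longer ones (S100a6, S100a10 and S100a16). Whether gene length has a part in the S100 values was not tested. In a fit without these libraries S100a11 was called in Pre-enriched against Pre-FACS cells (log2 difference 0.20, limma adjusted p = 0.048, with 0.289% of all genes called). No other S100 gene was called in any pair. In the full fit the S100a11 difference was 0.08 (limma adjusted p = 0.848). The libraries were left out after their high S100 values, S100a11 included, had been seen. The call follows in part from that choice and is not evidence of a change.

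In the input series, where expression was read from ever fewer cells, the order of the genes was not that of the processing libraries. In the bulk RNA S100a11 was highest, at 3128 and 3167 TPM, above S100a6 at 2087 and 2222 TPM and S100a10 at 1854 and 1906 TPM. S100a16 followed at 538.6 and 561.0 TPM, S100a14 at 341.3 and 350.8 TPM and S100a1 at 100.7 and 104.6 TPM. S100a8 measured 37.4 and 51.0 TPM, and S100a13, at 37.5 and 38.7 TPM, fell within that range. S100a4 was at 15.5 and 21.9 TPM and S100a9 at 8.45 and 9.93 TPM. In libraries of many cells, a gene made by fewer cells and less RNA per cell cannot be told apart.

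The tables were normalized separately, so no test was run between them, and levels are only set side by side. S100a14 was listed at 12.2 to 18.7 TPM in the processing libraries and at 341.3 and 350.8 TPM in the bulk RNA of the input series, S100a4 at 145 to 212 TPM and at 15.5 and 21.9 TPM, and S100a6 at 4199 to 6272 TPM and at 2087 and 2222 TPM. A list of mesenchymal markers, of which 9 of 10 were present in the processing table and 8 in the input table, summed to 1450 to 1590 TPM in the processing libraries and to 269 and 276 TPM in the bulk RNA. Vim (960 to 1080 TPM and 73.0 to 85.4 TPM) and Fn1 (315 to 424 TPM and 131 to 133 TPM) held most of these sums. Sparc, Zeb1, Zeb2 and Twist1 were also lower in the bulk RNA. Cdh2 was near level, at 55.4 to 68.4 TPM and 54.1 to 56.0 TPM. Snai1 went the other way at low levels, at 0 to 0.76 TPM and 1.05 to 1.38 TPM. Some epithelial markers also stood apart between the tables. Epcam was at 32.1 to 38.9 TPM in the processing libraries and 811 to 842 TPM in the bulk RNA. Cldn7 was at 2.78 to 7.65 TPM and 570 to 586 TPM, and Muc1 at 854 to 987 TPM and 51.8 to 56.0 TPM. Others were nearer, with Krt8 at 6470 to 8260 TPM and 6590 to 6770 TPM and Krt18 at 8380 to 9900 TPM and 8780 to 8890 TPM. Krt7 was at 4090 to 4490 TPM and 4040 to 4080 TPM, and Cdh1 at 976 to 1060 TPM and 929 to 939 TPM. Krt19 was at 3680 to 4080 TPM and 6470 to 6660 TPM. The part of these differences in the S100 values was not tested.

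Many of the S100 genes were found in every single cell, which here means at 1 TPM or more. S100a1, S100a6, S100a10, S100a11 and S100a16 were detected in 11 of 11, S100a4 and S100a13 in 9, S100a14 in 8, S100a8 in 6 and S100a9 in 2. S100a11 ran from 800.8 to 7552 TPM with a median of 4001 TPM, S100a10 from 757.8 to 3490 TPM with a median of 2343 TPM, and S100a6 from 860.1 to 4065 TPM with a median of 2007 TPM. The lowest cell was cell 5 for S100a11, cell 11 for S100a10 and cell 2 for S100a6. Cell 5 was also second lowest for S100a10 and S100a6, at 1028 and 1279 TPM. Cells 5 and 11 had the smallest share of a library's fixed total in the S100 genes, at 0.411% and 0.464%. The input table held 65.29% and 65.14% of that total in these cells, and 54.23% to 99.99% over the single cells. Without the libraries labelled single cells 6 and 9 the medians were 3383, 2343 and 1761 TPM.

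S100a14 and S100a16, the epithelial pair, were low in the same cells. S100a14 was listed at 0 in single cells 3, 8 and 11 and reached 59.01 to 476.7 TPM in the other 8. S100a16 had its 3 lowest values in those same cells, at 240.7, 113.0 and 146.2 TPM, and lay between 477.8 and 1245 TPM elsewhere. Their Pearson's r over the 11 cells was 0.909 on the log2(TPM + 1) scale, the highest of the 45 pairs of S100 genes, and 0.903 without cells 6 and 9. In 10-cell pools, in which neither gene was ever under 234.5 TPM, the pair had an r of 0.33, and 0.644 without pools 5 and 12. Cells 8 and 11 had the fewest genes at 1 TPM or more of the single cells, at 3919 and 4106, and cell 3 had 5631. Points in these correlations share library quality and the detection of few transcripts, so the values are descriptions only.

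S100a1 and S100a13 behaved otherwise in cells 3, 8 and 11. S100a13 measured 231.9 TPM in cell 3 and 153.8 TPM in cell 8, its highest values, and was listed at 0 in cell 11. S100a1 measured 416.2, 333.6 and 572.7 TPM in the 3 cells, its highest values among the 11. S100a4 had its highest values in cells 8, 7 and 3, at 228.0, 128.0 and 70.83 TPM, and was listed at 0 in cells 2 and 11.

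Pooling 10 cells went with smaller spreads for 7 of the 10 genes. The coefficient of variation fell from 86.7% over single cells to 33% over pools for S100a1, from 136% to 51.6% for S100a4, from 112% to 37.8% for S100a13, from 94.9% to 20% for S100a14 and from 55.6% to 17.9% for S100a16. S100a6 went from 45.6% to 30.7% and S100a11 from 53.5% to 34.7%, while S100a10 had 37.5% over single cells and 38.0% over pools, S100a8 149% and 161%, and S100a9 233% and 271%. Over the 1731 genes with a mean of at least 100 TPM the medians were 59.4% and 21.9%. Without the libraries labelled single cells 6 and 9 and pools 5 and 12 the value was lower over pools for 9 genes, among them S100a10 (39.4% and 33.9%), S100a8 (162% and 145%), S100a16 (64.1% and 16.2%), S100a14 (112% and 21.5%) and S100a13 (136% and 41.4%), and S100a9 was at 0 in all 9 remaining single cells. Of the genes detected in part of the single cells, S100a4, S100a13 and S100a14 were detected in all 12 pools, S100a8 in 6 and S100a9 in 4.

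**Figure D2:**
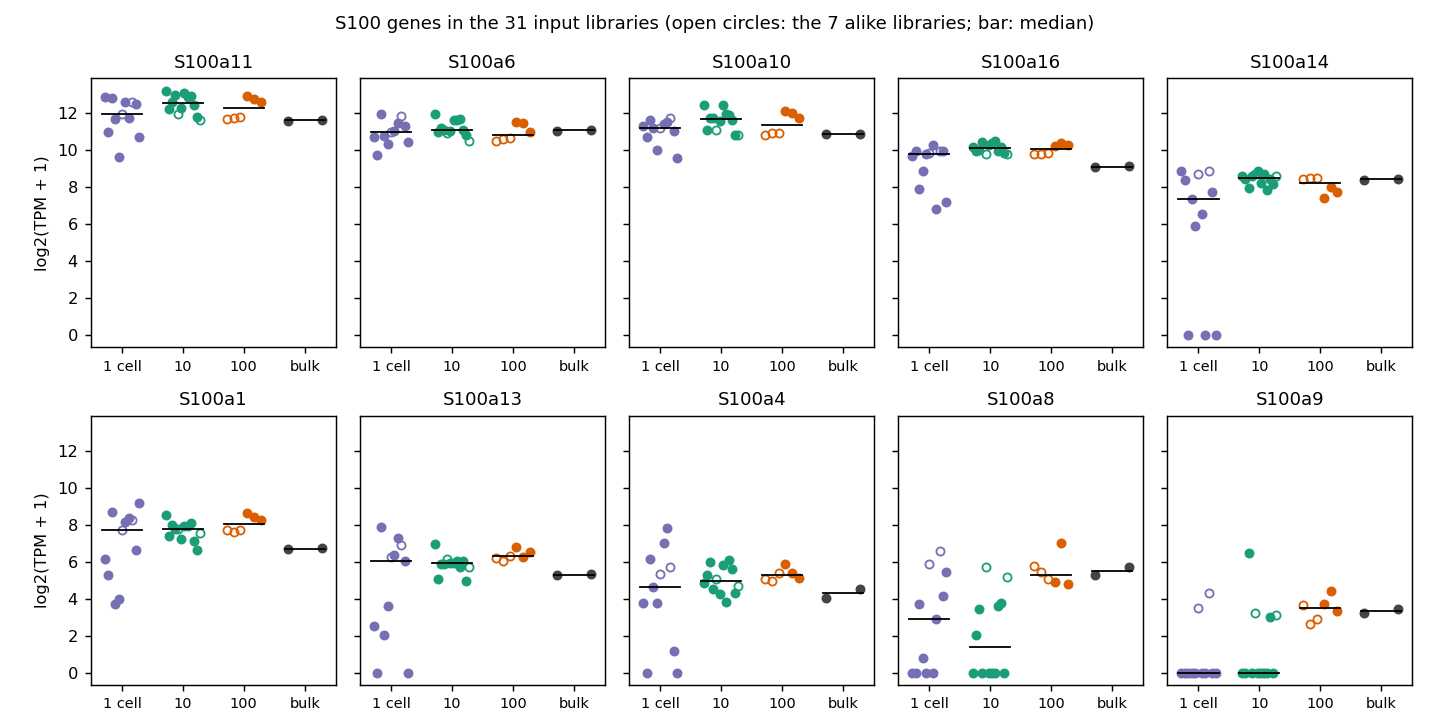
Level of each S100 gene, as log2(TPM + 1), in single cells, pools of 10 and of 100 cells and bulk RNA, 1 point a library and a bar at the median, with open circles for the 7 libraries alike across inputs. S100a11, S100a6 and S100a10 lie at the top in every input, S100a14 drops to 0 in 3 single cells, and S100a8 and S100a9 are at 0 in many single cells and 10-cell pools and above 0 in all 100-cell pools and bulk RNA.

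Against bulk RNA, S100a1 and S100a16 were higher in pools of 10 cells and S100a8 was lower. In this comparison 39.5% of the 12231 genes tested were called, 7.51% of them higher and 31.9% lower in the pools, and 3 of 10 S100 genes were called, 2 higher and 1 lower, so the share called was not above the background. The median log2 difference was −0.862 over all genes and 0.644 over the S100 genes. Beside this, 89 genes outside the family with under 1000 exonic bases and a mean of at least 100 TPM had median log2 deviations of −0.962 and −0.918 in the bulk RNA libraries, where 1702 longer genes had −0.288 and −0.293 and the 6 S100 genes at that level had −0.685 and −0.656. For S100a1 and S100a11, which are under 1000 exonic bases, the median was −0.874 and −0.838, and for the longer S100a6, S100a10, S100a14 and S100a16 it was −0.369 and −0.304, and the part of gene length was not tested. S100a16 ran from 891.7 to 1451 TPM in the 12 pools with a median of 1107 TPM, above both bulk values without overlap, for a log2 difference of 1.01 (SE 0.200, limma adjusted p = 0.00082). S100a1 ran from 99.24 to 360.5 TPM with a median of 216.5 TPM, and only pool 11 was under the bulk values (log2 difference 0.96, SE 0.337, limma adjusted p = 0.0284).

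S100a11 was also above bulk RNA in each of the 12 pools but just missed the threshold. It ran from 3244 to 9587 TPM with a median of 5948 TPM, at a log2 difference of 0.89 (SE 0.367, limma adjusted p = 0.0573). The lowest value was that of pool 12, and without pools 5 and 12 and 100-cell pools 1 to 3 the difference was 1.03 with an adjusted p of 0.00455. S100a11 and S100a16 were the 2 of 10 S100 genes whose groups did not overlap, as for 49.6% of all genes, and 9.02% of all genes were higher without overlap. In the fit without those libraries S100a10 was called as well (log2 difference 0.87, limma adjusted p = 0.0227), which with S100a1, S100a11, S100a16 and S100a8 made 5 S100 genes called, 4 higher and 1 lower, where 49.8% of all genes were called. S100a4, S100a6, S100a9, S100a13 and S100a14 were called in neither fit, and with either bulk RNA library left out of the full fit S100a16 was the 1 gene still called, where 10.5% and 11.9% of all genes were.

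Pools of 100 cells, set against the same bulk RNA libraries, gave 3 called genes, all higher than bulk RNA, where 32.3% of all genes were called, 7.37% higher and 24.9% lower. S100a1 measured 205.2, 195.3, 208.8, 394.5, 340.6 and 305.9 TPM in pools 1 to 6, all above the bulk values (log2 difference 1.36, SE 0.360, limma adjusted p = 0.00888). Its head-to-head neighbor S100a13 measured 71.25, 64.04, 77.48, 111.8, 75.92 and 90.16 TPM, also without overlap (log2 difference 1.06, SE 0.356, limma adjusted p = 0.0289). S100a16 measured 899.1, 887.0, 927.8, 1219, 1360 and 1254 TPM (log2 difference 0.97, SE 0.214, limma adjusted p = 0.00319). With S100a4 and S100a11, 5 of 10 S100 genes were higher without overlap, as were 14% of all genes, while 66.7% of all genes did not overlap in either direction. Leaving out either of the bulk RNA libraries left 0 S100 genes called, where 2.9% and 4.01% of all genes were called, so 0 of 10 is near the background, and S100a13 also missed the threshold without 100-cell pool 4 or pool 6 (limma adjusted p = 0.0548 and 0.0514).

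The 6 pools of 100 cells fell into sets, with pools 4 to 6 alike (r from 0.977 to 0.982) and pools 1 to 3 among the 7 libraries named above. S100a10 measured 1852, 1960 and 1966 TPM in pools 1 to 3 and 4481, 4089 and 3398 TPM in pools 4 to 6, and S100a11 measured 3322, 3485 and 3540 TPM and 7787, 7045 and 6326 TPM. S100a1, S100a6, S100a10, S100a11 and S100a16 were 1.41 to 2.07 times as high in pools 4 to 6, without overlap. S100a14 went the other way, from 345.7, 363.9 and 358.2 TPM to 169.4, 253.7 and 217.6 TPM. The sets did not overlap for 75.1% of all genes, so 6 of 10 S100 genes is not above the background, though 16% of all genes had every value of pools 4 to 6 above pools 1 to 3. Beside this, the 89 genes outside the family with under 1000 exonic bases had median log2 deviations of 0.496 to 0.742 in pools 4 to 6 and −0.233 to −0.113 in pools 1 to 3. The 1702 longer genes had −0.113 to 0.0961 in pools 4 to 6 and 0.0122 to 0.0248 in pools 1 to 3. In pools 4 to 6 the median was 0.43 to 0.763 for S100a1 and S100a11 and 0.0613 to 0.362 for the longer S100a6, S100a10, S100a14 and S100a16. In pools 1 to 3 it was −0.322 to −0.263 for S100a1 and S100a11 and −0.408 to −0.304 for the longer members. The part of gene length was not tested.

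The calls against bulk RNA changed with these sets. With pools 4 to 6 alone, S100a1 (log2 difference 1.74), S100a10 (1.08), S100a11 (1.16), S100a13 (1.24) and S100a16 (1.21) were called higher and S100a14 (−0.71) lower, at limma adjusted p-values from 0.000136 to 0.0263, where 56% of all genes were called. With pools 1 to 3 alone S100a16 was the only call (log2 difference 0.72, limma adjusted p = 0.0443), where 7.02% of all genes were called. S100a16 was thus called against bulk RNA in both sets and in the 10-cell pools. All of these comparisons used the same bulk RNA libraries, so they are not independent of each other.

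**Figure D3:**
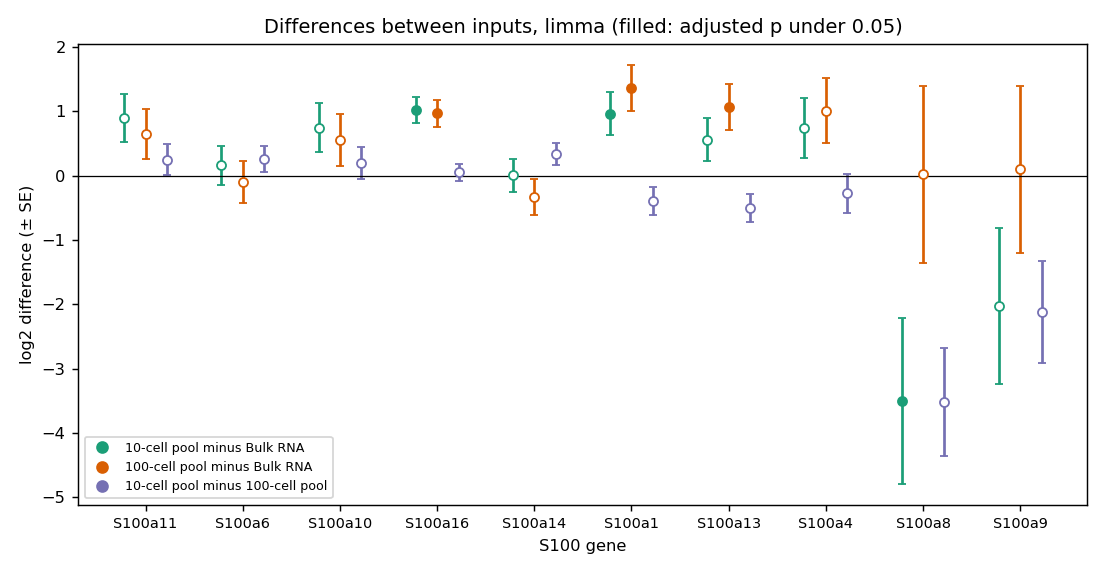
Log2 difference of each S100 gene (vertical axis, ± SE from limma on log2(TPM + 1)) for pools of 10 cells minus bulk RNA, pools of 100 cells minus bulk RNA and pools of 10 minus pools of 100 cells, with filled points for an adjusted p under 0.05. S100a16 and S100a1 are filled and above 0 for both pool sizes, S100a13 for the larger pools, and S100a8 is filled and below 0 for pools of 10 cells.

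Between the pool sizes none of the S100 genes was called, and 0.00818% of all genes were. S100a8 (log2 difference −3.52, limma adjusted p = 0.295), S100a9 (−2.12, adjusted p = 0.57) and S100a13 (−0.50, adjusted p = 0.646) had unadjusted p-values under 0.05, as had 7.19% of all genes. Groups overlapped for all 10 genes and failed to overlap for 0.0491% of all genes. With the 5 pools of the alike libraries left out, S100a8 was called lower in pools of 10 (log2 difference −4.29, limma adjusted p = 0.00418) and S100a14 higher (0.67, adjusted p = 0.023), where 14.9% of all genes were called.

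S100a8 and S100a9, the calprotectin genes, were the members that came and went between libraries. S100a8 was listed at 0 in 10-cell pools 1, 4, 6, 7, 8 and 11 and measured 3.136, 9.949, 51.43, 11.1, 12.67 and 34.53 TPM in pools 2, 3, 5, 9, 10 and 12. In 100-cell pools 1 to 6 it measured 53.4, 42.52, 32.61, 29.21, 128.3 and 26.83 TPM. All 100-cell pools held it, and the only 10-cell pools in their range were pools 5 and 12. The log2 difference between 10-cell pools and bulk RNA was −3.50 (SE 1.28, limma adjusted p = 0.0351). With 6 of 12 values at 0 its size depends on the pseudocount, and it is no bound on a fold, and the call was lost without either bulk RNA library (adjusted p = 0.161 and 0.211).

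The 7 alike libraries carried both genes throughout, whatever their input. S100a8 measured 58.07 and 95.9 TPM in the libraries labelled single cells 6 and 9, and S100a9 measured 10.28 and 18.41 TPM there. The other 9 single cells had no S100a9 and held S100a8 at 1 TPM or more in 4, namely 12.09, 6.486, 16.96 and 43.16 TPM in cells 3, 8, 10 and 11. Over single cells and 10-cell pools, cells 6 and 9 and pools 5 and 12 held both genes in 4 of 4, and the other 19 held S100a8 in 8 and S100a9 in 2. These 4 libraries had 11223 to 11498 genes at 1 TPM or more and the other 19 had 3919 to 10760.

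**Figure D4:**
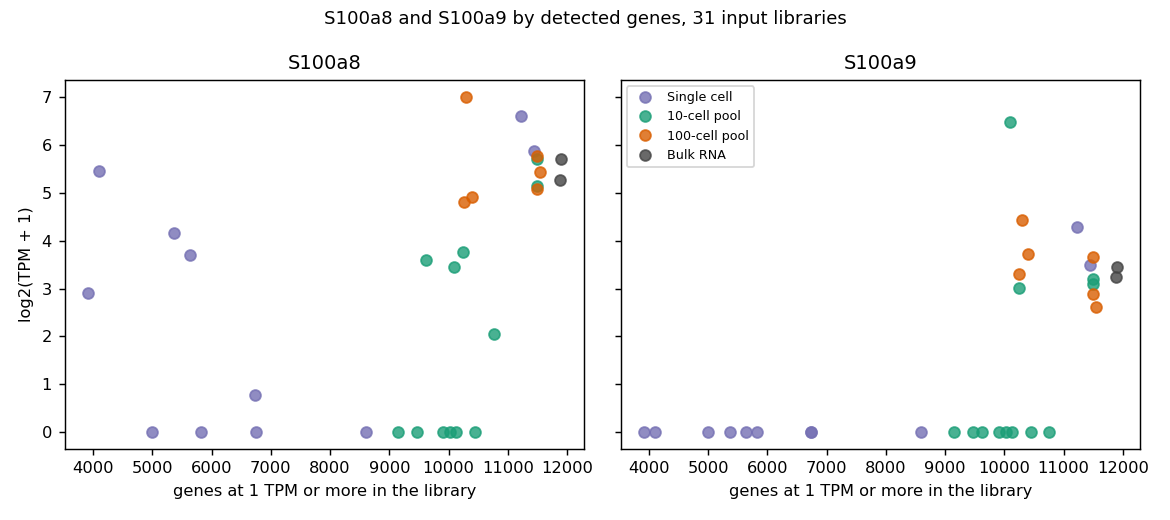
S100a8 (left) and S100a9 (right), as log2(TPM + 1), against the number of genes at 1 TPM or more in each of the 31 input libraries, colored by input. The bulk RNA, the 7 alike libraries and the other 100-cell pools all hold both genes, and S100a9 is at 0 in the other 9 single cells.

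S100a9 had 1 value far from the rest, 87.98 TPM in 10-cell pool 3, where S100a8 was at 9.949 TPM. In pools 5, 10 and 12 it measured 8.245, 7.111 and 7.535 TPM, and it was listed at 0 in the other 8. In 100-cell pools 1 to 6 it measured 11.68, 5.119, 6.365, 12.28, 20.54 and 8.944 TPM. S100a8 exceeded S100a9 in every library that held both except 10-cell pool 3.

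A list of 17 neutrophil and other myeloid markers had 2 genes in the input table, Ltf (lactotransferrin, of neutrophil granules and of secretory epithelium) and Cd177. Their summed level was 47.4 to 89.3 TPM in cells 6 and 9 and pools 5 and 12, 0 to 2.46 TPM in the other 19 small libraries, 1.08 to 83.1 TPM in 100-cell pools and 123 to 133 TPM in bulk RNA, nearly all of it Ltf, since Cd177 never passed 0.504 TPM. In single cell 11, with S100a8 at 43.16 TPM, and in 10-cell pool 3, with S100a9 at 87.98 TPM, both were listed at 0. Of 6 erythroid markers only Alas2, the heme synthesis enzyme of red cell precursors, was in the input table. It measured 278 TPM in single cell 11 and up to 83.3 TPM in 10-cell pools, with a median of 7.92 TPM there, 1.03 to 11.6 TPM in 100-cell pools and at most 0.415 TPM in bulk RNA. The 10-cell pools highest for Alas2 were pools 10, 8 and 1, at 83.3, 45.3 and 43.6 TPM, of which pool 10 held S100a8 and S100a9 and pools 8 and 1 had both listed at 0. In cells 6 and 9 and pools 5 and 12 Alas2 was at 0.0717 to 0.455 TPM. The part of other cells in the S100a8 and S100a9 values was not tested.

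Some pairs of S100 genes varied together, and no background from other pairs of genes is given here. Over the 12 pools of 10 cells S100a10 and S100a11, neighbors on the far side of the gap, had an r of 0.953, and 0.934 without pools 5 and 12. The same pair had 0.827 over single cells and 0.861 over the processing libraries. High values were not particular to these neighbors. S100a6, across the gap, had 0.914 with S100a10 over the pools, 0.93 over the processing libraries and 0.704 over single cells. Over single cells S100a6 and S100a13 had 0.869. S100a6 and S100a11 had 0.907 over the pools and 0.944 over the processing libraries, while S100a4 and S100a14 ran opposite over the pools, at −0.73. Without pools 5 and 12 the values over the pools were 0.861 for S100a6 and S100a11 and −0.762 for S100a4 and S100a14. The median over the 45 pairs of members was 0.242 over the pools and 0.307 over single cells, and 0.647 over the 28 pairs in the processing libraries, in which the first Pre-FACS and FACS-only libraries are high for 6 of the genes. Without pools 5 and 12 the median over the pools was 0.225. Without cells 6 and 9 that over single cells was 0.159, from the 36 pairs without S100a9.

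The gene most like each member over the 12 pools of 10 cells, by Pearson's r of log2(TPM + 1), was Ly6a for S100a10 (0.956), S100a10 for S100a11 (0.953), Rpl11 for S100a6 (0.967), Gpx3 for S100a14 (0.917), Swi5 for S100a1 (0.91), Npc2 for S100a13 (0.903), Mettl23 for S100a4 (0.9) and Rwdd1 for S100a16 (0.885). S100a14 and Gpx3 kept an r of 0.948 over all 31 input libraries, S100a10 and S100a11 kept 0.89 and S100a6 and Rpl11 kept 0.816. The others fell, to 0.34 for S100a1 and Swi5, 0.26 for S100a16 and Rwdd1 and 0.15 for S100a10 and Ly6a. The r was 0.104 for S100a13 and Npc2 and −0.204 for S100a4 and Mettl23. S100a8 was most like Glmp (0.939, and 0.44 over the 31) and S100a9 most like A730090H04Rik (0.985, and 0.864 over the 31). In these last pairs many pools share values of 0. Without pools 5 and 12 the likeness values over the pools ran from 0.835 to 0.996. As the highest of many correlations these values are large by selection.

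The partners of the S100 proteins formed a list of 14 genes, 12 of them tested in each experiment. In the processing conditions none of the 12 was called. Against bulk RNA, where 39.5% and 32.3% of all genes were called, 7 of 12 were called in pools of 10, 3 higher (Bsg, Cacybp and Sugt1) and 4 lower (Ahnak, Fgf1, Il1a and Myh9), and 6 of 12 in pools of 100, 3 higher (Anxa1, Cacybp and Sugt1) and 3 lower (Ahnak, Anxa6 and Myh9). The median log2 difference of the list was −1.09 and −0.964, where that over all genes was −0.862 and −0.795. Cacybp, which binds S100a6, was at 338 ± 54.9 TPM in pools of 10 (SD, n = 12) and 192 ± 5.71 TPM in bulk RNA (SD, n = 2), a log2 difference of 0.80 (SE 0.257, limma adjusted p = 0.0183). Sugt1 was higher by 0.98 (SE 0.327, adjusted p = 0.022). Their partner S100a6 was not called, with a log2 difference of 0.16 (adjusted p = 0.698).

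Anxa1 and Anxa2 were the partners with the highest levels in the bulk RNA of the input series. Anxa1, the partner of S100a11, was at 6890 ± 2237 TPM in pools of 100 (SD, n = 6) and 3919 ± 21.2 TPM in bulk RNA (SD, n = 2), a log2 difference of 0.75 (SE 0.286, limma adjusted p = 0.0495). In pools of 10 Anxa1 was not called (log2 difference 0.50, SE 0.268, limma adjusted p = 0.140). Anxa2, the partner of S100a10, was at 4579 ± 693 TPM in pools of 10 (SD, n = 12) and 3468 ± 5.37 TPM in bulk RNA (log2 difference 0.39, SE 0.168, adjusted p = 0.0712) and was not called. Myh9, the nonmuscle myosin heavy chain that S100a4 binds, was the partner furthest below bulk RNA, at 13.7 ± 10.3 TPM in pools of 10 (SD, n = 12) against 288 ± 43.7 TPM (log2 difference −4.53, SE 0.664, adjusted p = 8.28e-05). In the fit without the 5 alike pools 10 of 12 partners were called in pools of 10, 4 of them higher, Anxa2 among them, and 8 in pools of 100, 3 of them higher, where 49.8% and 56.1% of all genes were called. Without 100-cell pools 4 to 6 instead, pools of 100 had 1 partner called higher (Bsg) and 1 lower (Myh9), where 7.02% of all genes were called. Anxa1 was called in pools of 100 without the alike pools, but not without 100-cell pools 4 to 6 and not without 10-cell pools 5 and 12. Of 7 other S100 genes 4 were tested in each experiment, and none was called in any comparison.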

How the data were processed

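RNA of PD798 cells was sequenced after amplification with SMART-Seq v4, a kit that does not mark strand. The authors aligned reads to mm10 with spike-in sequences added (STAR, version 2.52 in the submitters' notes), counted reads per gene with featureCounts, applied EDASeq's upper-quartile normalization and made the deposited TPM with effective gene lengths. The annotation used for counting is not given in the sources used here. TPM keeps no depth, so no counting error could be given. Groups came from the labels, and columns left unused numbered 0.

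The tests used log2(TPM + 1), and fold differences are on that scale, which understates changes of low genes. A gene was kept if 3 or more libraries had it at 1 TPM or more (12159 of 13845 in 12 processing libraries, 12231 of 13817 in the 20 pools and bulk RNA libraries). All conditions, or all 3 inputs, entered 1 model each (limma 3.58.1, R 4.3.3, with its trended empirical Bayes step, Benjamini-Hochberg over all genes, threshold 0.05), tested on simulated data. Single cells were described without a test. Descriptions used Python 3.11.15, numpy 2.4.6 and pandas 2.3.3. Tests stayed within a table. The members and gene lists were chosen with earlier results of these data known. Named were all S100 genes, the partners and other S100 genes called in any contrast, the 2 partners highest in bulk RNA, and the gene most like each member. Alternatives were a pseudocount of 0.1, no filter or a mean of 5 TPM, quantile normalization, no trend, rescaling, the replicate block, only the conditions compared, other limits of detection, and omission of each library or set of pools. Leaving out 10-cell pools 5 and 12, the alike pools, and the first Pre-FACS and FACS-only libraries was added after seeing the data. Part of the model's genotype is not reported here.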

Additional observations from a re-analysis of the deposited data

Results flagged for a closer look

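S100a8 in 100-cell pool 5 stood apart from the other 5 pools of 100 cells. It measured 128.3 TPM there and 26.83 to 53.4 TPM in the others, and the gap to the nearest pool was 0.738 of the whole range. S100a9 was also highest in that pool, at 20.54 TPM. The summed level of Ltf and Cd177 was 1.84 TPM in it. In groups of 4 to 10 libraries, 10 sets of values were examined for such gaps and this was the only one. The 10 sets are the S100 genes in these same pools, so they are not independent. A nominal rate of about 1 in 20 by chance is therefore a rough guide only.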

How the results depend on the processing

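Counts of called S100 genes moved as follows. The share of all genes called under each setting is given in brackets. Against bulk RNA, the 3 calls in pools of 10 became 5 with quantile normalization (32.2%) and 5 without 10-cell pools 5 and 12 and 100-cell pools 1 to 3 (49.8%), and the 3 calls in pools of 100 became 6 without 100-cell pools 1 to 3 (56%), 1 without pools 4 to 6 (7.02%) and 6 without the 5 alike pools (56.1%). Leaving out each library gave 1 to 4 calls in pools of 10 and 0 to 3 in pools of 100, with the lowest values where either bulk RNA library was missing (10.5% and 11.9% for pools of 10, 2.9% and 4.01% for pools of 100) and the lone one was assumed to vary like the other groups. Between pool sizes the 0 calls became 3 without 100-cell pools 1 to 3 (17.9%), 1 without 10-cell pools 5 and 12 (S100a8, 0.574%) and 2 without the 5 alike pools (14.9%). Between Pre-enriched and Pre-FACS cells the 0 calls became 1 (S100a11, 0.289%) without the first Pre-FACS and FACS-only libraries, left out after their high S100 values were seen. The call of S100a8 in pools of 10 was lost with a pseudocount of 0.1 (adjusted p = 0.0705) and with quantile normalization (0.116). The cause was not tested.

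With the replicate number as a block, 1 S100 gene was called in pools of 10 and 0 in pools of 100 against bulk RNA, where 6.22% and 0% of all genes were called. Same-numbered libraries deviated together at r above 0.1 in 2 of 18 pairs of the processing experiment and 1 of 10 of the input series. In the processing experiment r ran from −0.0422 to 0.229, with a median of 0.0693. Only replicate 2 of Pre-enriched and Mock was below 0 there, and whether same-numbered libraries share a small effect was not tested. The numbers were not taken to pair libraries, and the block changed no other count of S100 calls. Over all genes it raised the share called against Pre-FACS from 0.123% to 0.633% in FACS-only and from 0.0493% to 0.304% in Pre-enriched cells. For the F test the share went from 0.107% to 0.502%. All other settings run kept the counts of calls within 1.5 times. Over all log2 differences of S100 genes, 71 of 960 values in pairs of conditions and 34 of 930 in pairs of inputs changed sign, none of them for a difference with an unadjusted p under 0.05. Few libraries of bulk RNA limit the comparisons with it, and TPM gives no depth.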
